A study of Mus musculus with 13 samples.

Results

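The comparison set H3K27ac in untreated macrophages that carried an shRNA against C/EBPβ (shCEBPb) beside untreated macrophages that carried a scramble shRNA. Its members are 32479 regions, made by merging the islands called in these 2 libraries wherever they overlapped by at least 1 bp, out of 39569 regions merged over all 13 libraries of the series. Both cultures were macrophages differentiated from C57BL/6 mouse bone marrow and taken on day 7, grown with L929-conditioned medium and given no cytokine, and their chromatin was precipitated with the same antibody, ab4729. Every condition of the series is 1 library, so the differences here have no replicate check, and no p-value can be given for the untreated pair alone. Other untreated libraries set beside the pair are shJunB cells and a library whose labels name no shRNA. Scramble, shJunB and shCEBPb cells were also taken after 4 h of 100 ng/ml interferon-γ (IFNγ). The 6 knockdown libraries, untreated and with IFNγ, enter a joint fit. Libraries of cells given IL-4, IFNγ or both for 2 or 4 h enter only where islands were merged across all 13 libraries. The labels do not give the vector, the number of hairpins, the mice per library or the degree of knockdown. RNA and protein of C/EBPβ were not measured in these libraries, so the knockdown is taken from the label.

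C/EBPβ is a basic leucine zipper transcription factor that binds DNA as a dimer with itself or with relatives such as C/EBPα, C/EBPδ and C/EBPγ, and it can also pair with ATF-family proteins. In macrophages it is known as a regulator of cytokine, acute phase and granulocyte-monocyte genes, and it acts together with PU.1 and AP-1 at enhancers. H3K27ac, acetylation of lysine 27 of histone H3, is laid down by the coactivators p300 and CBP and marks active promoters and enhancers.

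The promoters that bear on the comparison were taken from RefSeq (GRCm38.p6, 300 bases each, 250 before and 50 after an annotated start, written 5′ to 3′ on the gene's strand). The first is that of Cebpb itself (chr2:167688665-167688964, plus strand). Scd4 (chr19:44333076-44333375, plus strand) and Aspa (chr11:73324588-73324887, minus strand) are the genes with the most extreme ratios whose promoter lay in a region higher in shCEBPb, and Shbg (chr11:69617856-69618155, minus strand) and Tarm1 (chr7:3502575-3502874, minus strand) are their counterparts in regions lower in shCEBPb. The promoters of Fabp1 (chr6:71199629-71199928, plus strand), Rasl11a (chr5:146844821-146845120, plus strand) and Rnase10 (chr14:51007501-51007800, plus strand) matched the C/EBP letters TTGCNNAA in a differing region. They were added after the values were seen. Capitals mark a match to the C/EBP letters TTGCNNAA on either strand.
Cebpb: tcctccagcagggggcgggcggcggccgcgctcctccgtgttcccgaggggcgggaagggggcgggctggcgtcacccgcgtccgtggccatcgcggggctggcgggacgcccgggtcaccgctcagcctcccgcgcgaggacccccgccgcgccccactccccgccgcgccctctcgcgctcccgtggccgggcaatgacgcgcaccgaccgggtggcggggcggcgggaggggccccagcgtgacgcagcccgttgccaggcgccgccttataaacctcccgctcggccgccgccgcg
Scd4: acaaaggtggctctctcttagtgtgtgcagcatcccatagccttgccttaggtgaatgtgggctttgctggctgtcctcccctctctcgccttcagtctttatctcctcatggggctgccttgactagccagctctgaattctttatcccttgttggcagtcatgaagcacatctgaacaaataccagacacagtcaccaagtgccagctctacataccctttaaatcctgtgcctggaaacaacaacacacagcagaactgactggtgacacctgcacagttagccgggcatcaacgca
Aspa: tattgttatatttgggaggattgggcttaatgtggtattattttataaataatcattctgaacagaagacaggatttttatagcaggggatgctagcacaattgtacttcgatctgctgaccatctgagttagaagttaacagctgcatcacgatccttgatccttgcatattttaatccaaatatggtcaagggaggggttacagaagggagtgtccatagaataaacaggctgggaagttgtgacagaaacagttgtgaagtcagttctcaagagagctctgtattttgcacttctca
Shbg: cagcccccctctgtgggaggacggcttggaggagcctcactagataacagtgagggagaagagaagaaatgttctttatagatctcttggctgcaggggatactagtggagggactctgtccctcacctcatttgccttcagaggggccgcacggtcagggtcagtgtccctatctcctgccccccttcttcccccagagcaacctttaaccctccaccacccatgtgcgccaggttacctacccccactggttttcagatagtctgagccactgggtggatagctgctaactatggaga
Tarm1: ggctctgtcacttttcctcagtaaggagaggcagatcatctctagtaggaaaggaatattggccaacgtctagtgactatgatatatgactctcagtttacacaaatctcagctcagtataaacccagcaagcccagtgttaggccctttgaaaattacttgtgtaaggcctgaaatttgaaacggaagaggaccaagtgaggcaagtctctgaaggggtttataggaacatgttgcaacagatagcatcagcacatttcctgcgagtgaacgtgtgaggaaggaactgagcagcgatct
Fabp1: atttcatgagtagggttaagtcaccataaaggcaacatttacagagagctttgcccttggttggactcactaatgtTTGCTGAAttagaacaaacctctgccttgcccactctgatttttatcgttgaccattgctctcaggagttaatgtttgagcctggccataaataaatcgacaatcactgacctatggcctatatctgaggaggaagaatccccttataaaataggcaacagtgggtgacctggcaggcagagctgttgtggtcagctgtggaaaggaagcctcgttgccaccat
Rasl11a: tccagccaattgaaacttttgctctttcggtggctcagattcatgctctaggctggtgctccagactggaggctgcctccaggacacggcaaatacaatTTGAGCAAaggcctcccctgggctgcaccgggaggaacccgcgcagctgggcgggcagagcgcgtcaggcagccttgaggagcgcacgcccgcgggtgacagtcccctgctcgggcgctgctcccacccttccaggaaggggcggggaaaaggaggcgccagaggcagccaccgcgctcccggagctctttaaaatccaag
Rnase10: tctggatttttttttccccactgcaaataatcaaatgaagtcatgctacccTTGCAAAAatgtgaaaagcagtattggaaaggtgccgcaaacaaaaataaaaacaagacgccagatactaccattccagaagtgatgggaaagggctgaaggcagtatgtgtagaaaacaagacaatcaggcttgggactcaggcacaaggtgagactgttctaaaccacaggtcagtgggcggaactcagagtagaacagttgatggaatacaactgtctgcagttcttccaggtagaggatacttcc

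Only Fabp1, Rasl11a and Rnase10 of these 8 promoters carried a match. The 7-letter AP-1 motif TGANTCA, the C/EBP-ATF composite TGATGCAA and the ETS motif GAGGAAGT had no match in any of the 8. A promoter was at hand for 10978 of the 13661 genes tested, 51 of those higher and 34 of those lower. TTGCNNAA stood in 8.36% of all 10978 promoters, in 4 of 51 promoters of higher genes (7.84%) and in 5 of 34 of lower genes (14.7%). TGANTCA stood in 5.17% of all, in 5 of 51 (9.80%) and in 2 of 34 (5.88%). GAGGAAGT stood in 3.11% of all, in 1 of 51 (1.96%) and in 0 of 34. The palindrome TTGCGCAA, which TTGCNNAA includes, stood in 0.273% of all promoters and the composite in 0.583%, and neither stood in a promoter of a differing gene. These are counts of letters in short windows, with few promoters in each direction.

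The acetylation of the 2 libraries was closely alike. Of the 32479 regions, 26300 (81.0%) held an island in both libraries, and across them the log reads had a Pearson correlation of 0.970, a figure that carries no p since regions of one library share its depth. In these shared regions the log2 ratio of shCEBPb to scramble reads had a 5th percentile of -0.53, quartiles of -0.17 and 0.23, and a 95th percentile of 0.76, and 87.4% lay within 1.5-fold. ChIP reads were scaled by the median ratio over shared regions, which sets the centre of that distribution to 0. The shCEBPb library was the deeper, with 29.5 M reads against 22.0 M, but 65.1% of its reads lay in islands against 68.6%. Its islands covered 232.3 Mb against 219.9 Mb. An island was present only in shCEBPb at 4114 regions and only in scramble at 2065, and these were weak, with median normalised reads of 66.4 and 66.9. The part that depth plays in the unequal numbers was not tested.

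A region was said to differ when its normalised reads were at least 2-fold apart and the higher library had at least 50. A library without an island in a region was given a low fill value, 50.2 normalised reads for shCEBPb and 53.5 for scramble. By this rule 1298 of 32258 regions (4.02%) were higher in shCEBPb and 598 (1.85%) lower, together 5.88%. When reads were scaled by library totals, which moves all ratios by -0.11 on the log2 scale, the numbers were 988 and 810, so that 54.9% instead of 68.5% of the differing regions were higher. Restricted to regions with an island in both libraries, 661 were higher (2.53%) and 218 lower (0.836%) of 26079, together 3.37%. Reads were also divided by the called length of the islands, which differs between the libraries. Then 640 of the 1298 higher regions and 380 of the 598 lower ones still passed. Of the differing regions, 637 higher and 380 lower ones had an island in only 1 library. There the fill value was set over the other library's called length, so the ratio could hardly change. For such regions this measure is no test. Most of the differing regions were weak: the higher library had a median of 156.1 reads in the higher regions and 132.7 in the lower ones, against 227.8 over all tested regions. Among 7649 regions with at least 500 reads in both libraries only 12 differed, 10 higher and 2 lower. The log2 ratios of these strong regions had an SD of 0.22, where counting error alone gives 0.06.

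Differing regions were rare at gene starts. Of 8596 tested regions that overlapped an annotated start, 0.954% differed (50 higher, 32 lower), against 7.17% of 14411 regions elsewhere in genes (659 higher, 4.57%, and 374 lower, 2.60%) and 8.44% of 9251 regions between genes (589 higher, 192 lower). The share also varied with read level. It was 18.3% for regions with 97.0 to 227.8 reads in the higher library and 0.546% for those above 572.0. Positions were not compared at equal read level, so the part of read level in these shares was not tested. The median log2 ratio of shared regions was -0.05 at starts, 0.02 elsewhere in genes and 0.10 between genes. By chromosome the share that differed ran from 2.47% on X to 7.92% on 13, leaving out Y, which had 6 regions.

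**Figure D1:**
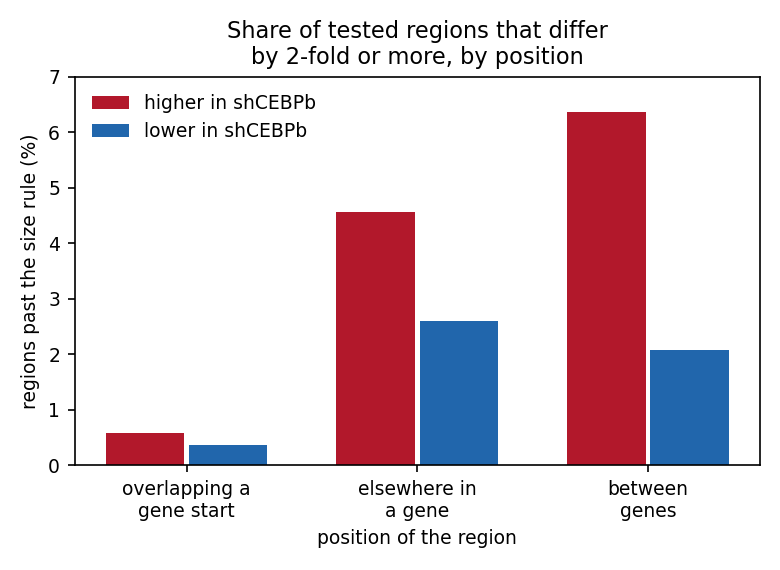
Share of tested regions (vertical axis, percent) that were at least 2-fold higher (red) or lower (blue) in untreated shCEBPb cells than in scramble cells, for regions that overlap an annotated gene start, lie elsewhere in a gene or lie between genes. The bars at gene starts, 0.582% and 0.372%, are the lowest, and those between genes reach 6.37% and 2.08%. Read level is not matched between positions.

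Summed over each gene and 1 kb either side, the difference was smaller still. Of 13661 protein-coding genes tested, 74 (0.542%) were higher and 45 (0.329%) lower in shCEBPb, 0.871% together, and 96.0% of genes lay within 1.5-fold. Scaled by library totals, 53 were higher and 69 lower. The median log2 ratio was -0.04 over all genes. Reads printed for a gene are sums over called islands, while its ratio and the rule add the fill value for each region without an island. Regions were shared by 48.1% of genes with another gene, so that neighbouring genes are not separate measurements. In bulk chromatin, fewer cells with the mark and less mark per cell cannot be told apart.

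**Figure D2:**
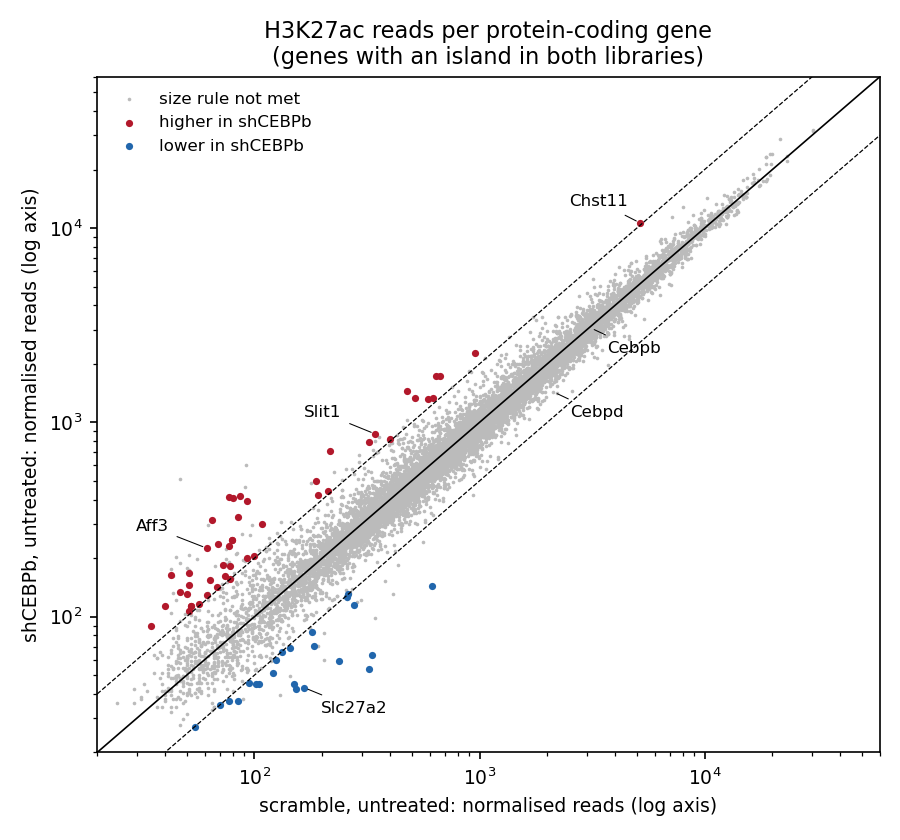
Normalised H3K27ac reads per protein-coding gene in scramble cells (horizontal, log axis) and shCEBPb cells (vertical, log axis), 1 point per gene with an island in both libraries; solid line, equality; dashed lines, 2-fold; red and blue, genes past the size rule. Some grey points lie beyond the dashed lines because the rule adds the fill value for each region without an island. Cebpb lies on the line of equality, and most red and blue points lie at the low end of both axes.

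The C/EBP family came first, as the family the shRNA is aimed at. None of the 7 genes listed under its name, all tested, passed the size rule, which 0.871% of all genes passed. Cebpb had 3064.8 normalised reads in shCEBPb and 3109.5 in scramble cells, a ratio of 0.986 (95% exact interval for counting error 0.937 to 1.04). The shJunB library had 3170.0 and the library without a named shRNA 2229.8. H3K27ac at the gene is no measure of how far its RNA was reduced. Around it, 11 regions lay within 150 kb, and 10 of them did not differ by the rule. These held the broad block downstream of the gene (chr2:167751401-167854000), with 13642.1 against 13527.4 reads, a block beside it (chr2:167708201-167750400) with 4910.6 against 4695.0, and an upstream block (chr2:167643401-167663600) with 4672.0 against 4378.3. The exception was a weak region 6.7 kb before the gene (chr2:167675201-167682200), with 64.6 reads in shCEBPb, 170.6 in scramble and 171.0 in shJunB cells, and per kb of called length its log2 ratio was -0.09 instead of -1.40.

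Cebpd, which encodes C/EBPδ, an acute phase relative that dimerises with C/EBPβ, had the lowest ratio of the family. Its region (chr16:15885601-15899800) had 1435.1 reads in shCEBPb, 2127.3 in scramble, 1708.4 in shJunB and 2323.1 in the library without a named shRNA. The shCEBPb value was the lowest of these 4, 1.48-fold below scramble (interval 1.39 to 1.59), short of the 2-fold rule. With IFNγ the values were 1005.5 and 1143.0, a smaller gap in the same direction. Farther along the chromosome, 91.5 kb from Cebpd and inside the gene Spidr, which encodes a scaffold protein of DNA repair, lay one of the strongest lower regions of the comparison (chr16:15981001-15994400). It had 170.4 reads in shCEBPb, 608.8 in scramble, 370.2 in shJunB and 615.2 in the library without a named shRNA, 3.57-fold lower in shCEBPb than in scramble (interval 3.02 to 4.24). Per kb of called length its log2 ratio was -0.30 instead of -1.84. With IFNγ it had 390.4 and 499.2. Of the 9 regions within 150 kb of Cebpd this was the only one past the rule, and it is named here after its values were seen.

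The other listed genes sat close to equality. Cebpa, the factor of early myeloid commitment, had 2560.7 reads in shCEBPb and 2449.5 in scramble. Cebpe, the factor of late granulocyte maturation, had 446.7 and 404.7. Cebpg, which encodes a short C/EBP that lacks an activation domain, had 3227.1 and 3041.5. Ddit3, which encodes CHOP, the stress-induced member, had 1781.3 and 1839.6 in a region that it shares with Mbd6. Cebpz, listed for its name, had 784.8 and 819.5. Their log2 ratios ran from -0.06 to 0.14. Those of Cebpa and Cebpg, 0.06 and 0.09, change sign when reads are scaled by library totals.

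**Figure D3:**
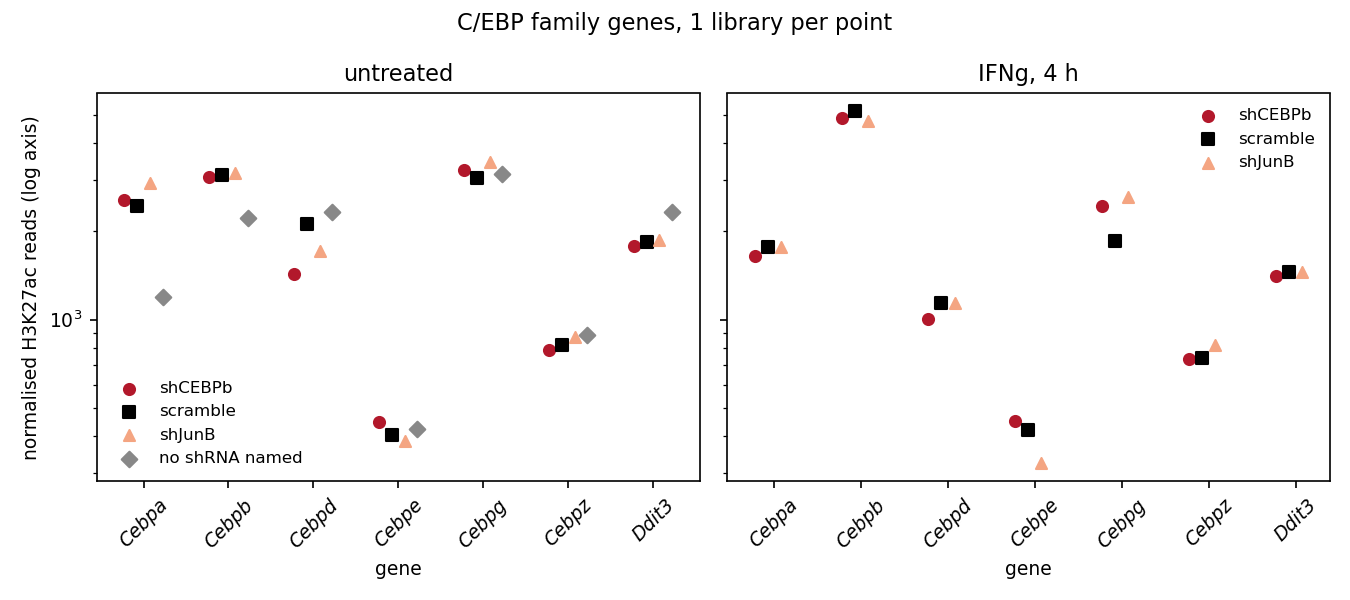
Normalised H3K27ac reads (vertical, log axis) at the 7 genes of the C/EBP list (horizontal) in untreated libraries (left) and after 4 h of IFNγ (right). Each point is 1 library, with no error bar since no condition is replicated. Untreated Cebpd is lowest in shCEBPb cells (1435.1 reads), while Cebpb is nearly equal in shCEBPb (3064.8) and scramble (3109.5).

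Genes that C/EBPβ is known to regulate in myeloid cells were next. Of 37 such genes 33 were tested, and 0 passed in either direction, beside 0.542% higher and 0.329% lower over all genes. Their median log2 ratio was -0.01, and all 33 lay within 1.5-fold. Csf3, which encodes the granulocyte growth factor G-CSF, had the lowest ratio, with 845.8 reads in shCEBPb, 1245.4 in scramble, 820.9 in shJunB and 1467.3 in the library without a named shRNA, 1.47-fold lower in shCEBPb than in scramble. Ptgs2, the inducible prostaglandin synthase, had the highest, with 138.1 against 100.3 reads. Il6 had 87.9 and 80.3, Il1b 683.5 and 805.0, Arg1 1061.1 and 1272.1, and the lipopolysaccharide co-receptor Cd14 4514.2 and 4594.6. The chemokine gene Ccl3 had 12350.6 and 12029.0 in a block that also covers Ccl4, Ccl6 and Ccl9. The 4 untested genes, Ear2, Bcl2a1a, Bcl2a1b and Bcl2a1d, held no island in either library.

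Of the 21 acute phase genes only 10 were tested, and 1 passed, beside 0.542% higher and 0.329% lower over all genes. Serpina3n, which encodes a secreted inhibitor of serine proteases, had 177.6 reads in shCEBPb (chr12:104413401-104419400) and no called island in scramble. The shJunB library had 155.6, the library without a named shRNA 263.4, and with IFNγ shCEBPb and scramble had 401.7 and 347.4. The missing island was therefore seen in untreated scramble cells alone among the libraries set beside it. The median of the 10 genes was 0.23. Orm2 and Orm3, genes of the acid glycoprotein orosomucoid, share 1 region with 91.5 reads in shCEBPb and no island in scramble, under the 2-fold rule. Of 21 granulocyte genes 13 were tested, and 0 passed. Csf3r, the G-CSF receptor gene, had 2919.5 and 3144.1 reads, and Mmp9, the neutrophil gelatinase, 378.5 and 243.1.

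Across all 26 pathway lists, which hold 517 genes, 462 were tested and 2 passed, both higher. By the same rule 0.542% of all genes were higher and 0.329% lower. Of the 462 list genes, 446 (96.5%) lay within 1.5-fold, close to the 96.0% of all genes. The second gene that passed was Dcstamp, which encodes a membrane protein needed for macrophage and osteoclast fusion. It had 327.4 reads in shCEBPb and 84.7 in scramble over 2 regions, 1 of them without an island in scramble, beside 368.5 in shJunB and 117.9 in the library without a named shRNA. Over the region with an island in both libraries its log2 ratio was 0.45 instead of 1.24 and did not pass. With IFNγ the order was the other way, 167.9 in shCEBPb and 222.5 in scramble. List medians ran from -0.16 to 0.23. The lowest medians belonged to the interferon-inducible GTPases (14 tested) and the Fc receptor genes (7 tested), at -0.16.

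Several lists can be read from a strong member. At Tnf, whose region also covers Lta, Ltb and other genes, shCEBPb had 11441.1 reads and scramble 11763.6. Cathepsin S (Ctss), which trims the MHC class II invariant chain, had 6806.7 and 6620.5. Atp6v0d2, a proton pump subunit of the alternative activation list, had 13417.9 and 13622.2. The GTPase gene Ifi47 had 2734.7 and 2665.8, and Dhx58, a regulator of viral RNA sensing, 5713.4 and 5368.4. For the chemokine Cxcl16 the reads were 12532.6 and 12172.8, for the Toll-like receptor kinase Irak2 9751.3 and 9530.4, and for the AP-1 partner Atf3 23243.6 and 18827.8. Runx1, a myeloid transcription factor, had 15410.8 and 13520.8. Fdft1 of cholesterol synthesis had 7760.1 and 7743.2, Rxra of the lipid list 9719.0 and 10187.1, and the glycolysis regulator Pfkfb3 4790.4 and 4691.6. The lysosomal gene Psap had 11849.2 and 11812.7, ferritin heavy chain Fth1 17480.0 and 18694.0, the metalloproteinase Adam8 6810.3 and 6209.0, the Fc receptor chain Fcer1g 3687.2 and 3743.9, the cell cycle kinase Cdk6 6558.3 and 5887.9, the stress gene Gdf15 5901.7 and 5473.2, and Actb 6004.9 and 6234.7. Each of these ratios lay within 1.5-fold.

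Past 1.5-fold lay 9 list members that were higher, with Serpina3n and Dcstamp among them, and 7 that were lower. In the lipid list Fabp4, the fatty acid carrier, had 786.6 reads in shCEBPb, 432.6 in scramble, 557.7 in shJunB and 526.7 in the library without a named shRNA, 1.82-fold higher in shCEBPb than in scramble (interval 1.61 to 2.05). With IFNγ it had 325.9 and 302.0. Lpl, lipoprotein lipase, had 2488.0 and 1458.3, and Scd2, a fatty acid desaturase, 305.0 and 186.2. Src, the kinase of osteoclast function, had 2233.3 and 1245.4. On the lower side Cd163, the haemoglobin scavenger receptor, had 423.3 and 936.5, with 484.0 in shJunB and 969.9 in the library without a named shRNA. Its region chr6:124302801-124308000 had no island in shCEBPb, and with the fill value the log2 ratio of Cd163 was -0.98, short of the rule. With IFNγ Cd163 had 293.6 and 148.3. Cx3cr1, the fractalkine receptor, had 1420.7 and 2210.9, Fpr2, a formyl peptide receptor, 569.5 and 927.6, and Cd38, an ecto-enzyme that breaks down NAD, 781.2 and 1332.3. Gbp7, a guanylate-binding protein gene, had 284.3 and 446.0, Ifi44 149.8 and 231.9, and Slc7a2, an arginine transporter, 46.6 and 72.5. With IFNγ Gbp7 had 1028.2 in shCEBPb and 804.7 in scramble, and Cx3cr1 had 3289.9 and 3457.3.

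Bach2, which encodes a repressor related to AP-1 and best known in lymphocytes, held more differing regions than any other listed gene. Of 20 regions over it (chr4) 7 passed as higher and 0 as lower, beside 4.02% of all regions higher. The region chr4:32257201-32266000 had 247.5 reads in shCEBPb, 79.2 in scramble, 297.4 in shJunB and 56.4 in the library without a named shRNA. The region chr4:32300801-32312600 had 434.1, 197.3, 353.3 and 208.1 in the same order, and chr4:32517601-32526200 had 231.4 in shCEBPb, 199.7 in shJunB and no island in the other 2 libraries. The strongest block (chr4:32346601-32407400) had 4378.7 in shCEBPb, 2555.4 in scramble, 4669.1 in shJunB and 5544.5 in the library without a named shRNA, 1.71-fold above scramble. No island was called in scramble at 10 of the 20 regions. Per kb of called length 5 of the 7 regions still passed. These 5 had no island in scramble, and there the fill value over the other library's length leaves the ratio nearly fixed. The regions chr4:32257201-32266000 and chr4:32300801-32312600 had islands in both libraries and did not pass. Their log2 ratios were 0.50 instead of 1.64 and 0.15 instead of 1.14. The gene as a whole had 11427.6 and 7189.1 reads and with IFNγ 12071.0 and 9378.4. In shJunB it had 11196.0, and both shRNA libraries are set against the same scramble library.

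**Figure D4:**
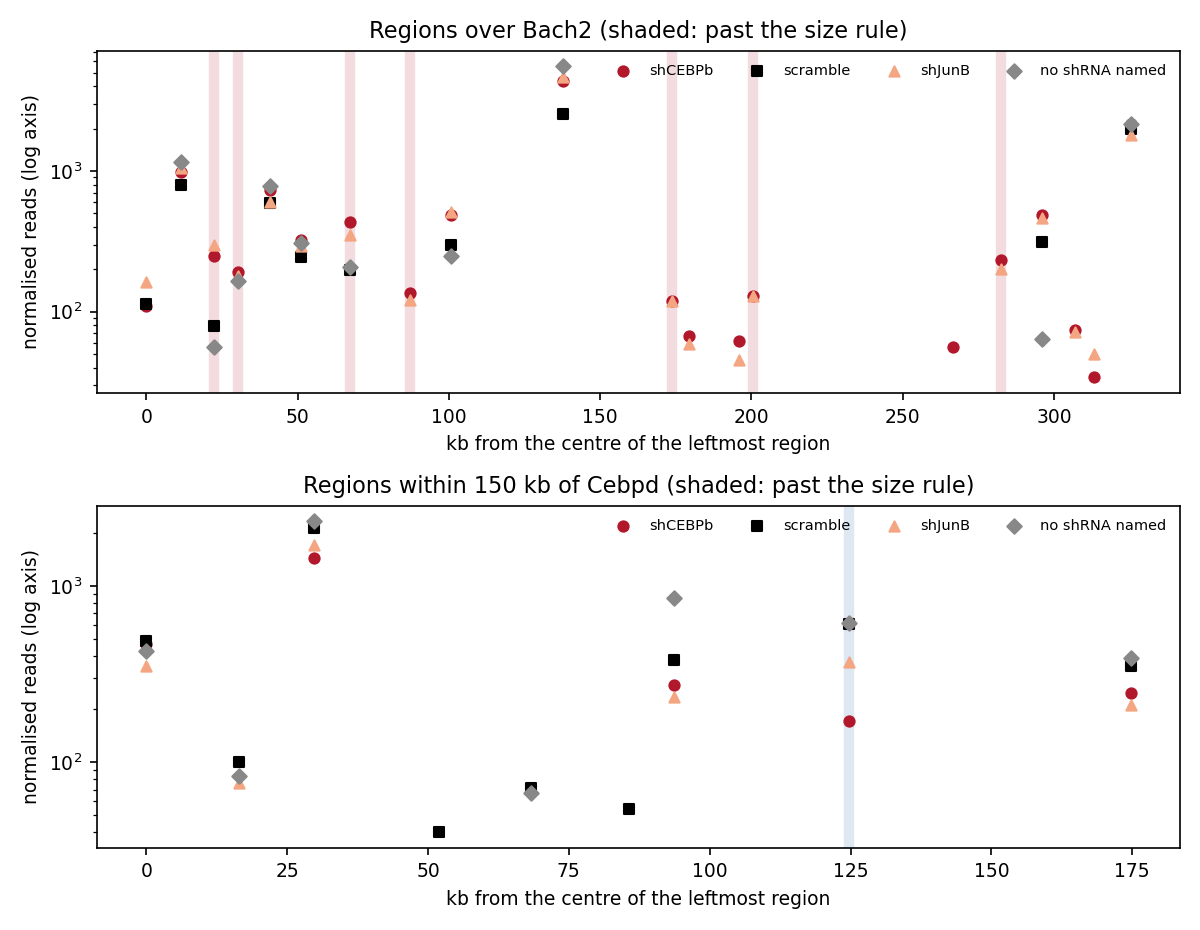
Normalised reads (vertical, log axis) of regions over Bach2 (top) and within 150 kb of Cebpd (bottom) in 4 untreated libraries, by distance in kb from the centre of the leftmost region (horizontal); a missing point means that no island was called. Shading marks the 7 Bach2 regions past the rule as higher and the single Cebpd neighbour past it as lower. The shJunB points over Bach2 lie near those of shCEBPb.

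The genes with the largest ratios had few reads. Ratios here include the fill value for each region without an island. By that measure Aff3, a nuclear protein of the AF4 family, had the highest ratio among genes with an island in both libraries. It had 225.1 reads in shCEBPb and 61.3 in scramble at chr1:38553601-38561600, 3.67-fold (interval 2.73 to 5.01). The shJunB library had 117.0 and the one without a named shRNA 287.3, so scramble was the lowest of the 4. It was followed by Mamdc2 (235.9 and 69.1 reads), the desaturase Scd4 (168.6 and 51.3), Aspa, which encodes the enzyme that splits N-acetylaspartate and shares its region with Spata22 (249.3 and 79.2), Plekha6 (232.3 and 76.9), Iglon5 (416.2 and 85.8), the sphingolipid hydroxylase Degs2 (133.6 and 46.8) and Gdpd2 (146.2 and 51.3). Of these 8 the scramble library was lowest among the untreated libraries with an island at Aff3, Mamdc2, Scd4, Plekha6, Iglon5, Degs2 and Gdpd2. At Aspa the library without a named shRNA was lower still, with 56.5. Iglon5 had 1 of 2 regions without an island in scramble, and with the fill value its ratio was 2.99-fold.

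At the lower end Slc27a2, a very long chain fatty acid transporter and acyl-CoA synthetase, had 43.1 reads in shCEBPb and 166.1 in scramble at chr2:126584401-126588800, 3.86-fold lower (interval 2.77 to 5.46), with 144.9 in the library without a named shRNA and no island in shJunB. Nrip2 had 42.2 and 152.7, Shbg, the sex hormone carrier gene, 44.8 and 149.4, the calcium channel subunit gene Cacnb2 53.8 and 321.1, Pdgfrl 63.7 and 333.4, Septin6 70.9 and 184.0, and Syce3, a gene of the meiotic synaptonemal complex, 51.1 and 120.4. Tarm1, an activating receptor of myeloid cells, had 114.8 in shCEBPb, 277.6 in scramble, 151.2 in shJunB and 81.0 in the library without a named shRNA. With IFNγ Tarm1 had 374.2 and 534.3, again with scramble higher. For Cacnb2 and Pdgfrl 1 of 2 regions had no island in shCEBPb, and with the fill value they were 3.09-fold and 2.93-fold lower. Over the other region alone their log2 ratios were -0.54 and -0.85, and neither passed the rule. When reads were divided by the called length, 6 of these 16 genes changed sign, from 1.77 to -0.72 on the log2 scale for Mamdc2, from 1.66 to -0.18 for Aspa, from -1.95 to 0.18 for Slc27a2, from -1.86 to 0.86 for Nrip2, from -1.74 to 0.06 for Shbg and from -1.24 to 0.68 for Syce3. On that measure 7 more no longer passed, namely Aff3 (0.13), Scd4 (0.19), Plekha6 (0.71), Degs2 (0.18), Gdpd2 (0.22), Septin6 (-0.10) and Tarm1 (-0.32). So 3 of the 16 kept their call, Iglon5, Cacnb2 and Pdgfrl. Each of these 3 has 1 region without an island in 1 library, where this measure can hardly change the ratio. With islands merged across the 13 libraries the calls of these 3 and of Tarm1 ended.

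Genes with an island in only 1 of the libraries included Npas4, an activity-induced transcription factor of neurons, with 267.3 reads in shCEBPb, no island in scramble, 77.2 in shJunB and 94.0 in the library without a named shRNA. With IFNγ it had 351.2 in shCEBPb and again no island in scramble. Syt16 had 264.6, Ubap1l 255.6 and the ephrin receptor gene Epha10 235.0 in shCEBPb, with no island in scramble. In scramble alone stood Sfi1, a centrosome gene, with 716.9 reads in a region that also covers Gm51877 and the start of Eif4enif1, the meiosis gene Mnd1 with 259.8, the sialyltransferase gene St8sia6 with 245.3 and the olfactory receptor gene Olfr211 with 228.6. For Sfi1 the shJunB library had 671.8 and the library without a named shRNA 394.1. With IFNγ, Syt16 had 452.7 in shCEBPb and 344.0 in scramble, Ubap1l 137.5 and 271.6, and St8sia6 168.0 and 181.3. Epha10 had 199.4, Sfi1 664.0 and Mnd1 254.3 in shCEBPb with IFNγ, with no island in scramble. Olfr211 had no island in either. So for Ubap1l, Sfi1 and Mnd1 the order with IFNγ was the other way. No list of repeat-rich or signal-prone regions was applied.

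**Figure D5:**
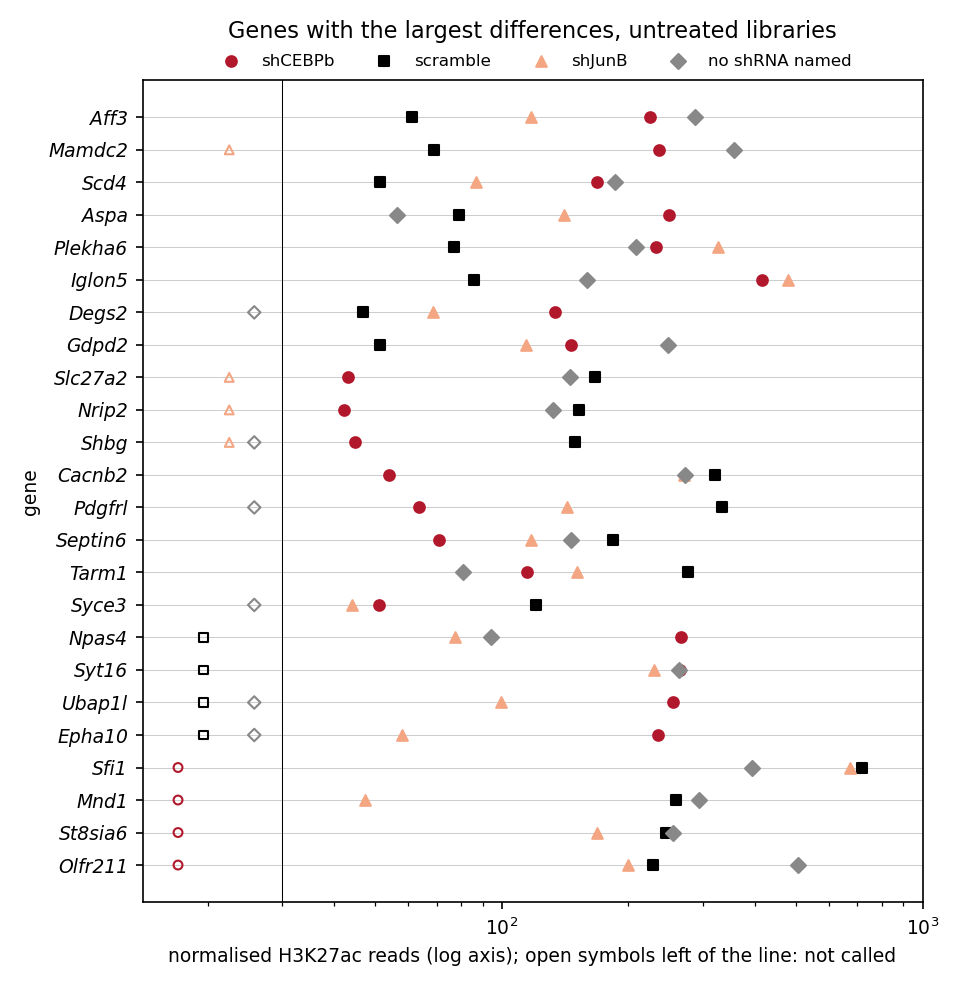
Normalised H3K27ac reads (horizontal, log axis) of the 24 genes with the most extreme ratios or an island in only 1 library (vertical) in 4 untreated libraries; open symbols left of the line mark libraries in which no island was called and carry no value. The 8 top genes have red points to the right of black squares, and the next 8 the reverse, with nearly all values under 500 reads.

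Among genes with at least 500 reads in the higher library, 12 were higher and 3 lower. These were chosen for mention after their values were seen. Chst11, which encodes a chondroitin sulfotransferase, was the most acetylated, with 10633.0 reads in shCEBPb and 5162.1 in scramble over 6 regions, 10436.9 in shJunB and 10309.1 in the library without a named shRNA. The other 3 libraries lay within a narrow range and scramble stood below them. The secreted protease gene Htra1 had 817.1, 399.1, 945.9 and 319.2 in that order. The axon guidance gene Slit1 had 871.8, 343.4, 818.1 and 489.9, and Hgfac, the activator of hepatocyte growth factor, 1330.1, 621.0, 1414.4 and 2702.5. Igfbp7, a secreted binding protein, had 711.3, 216.3, 227.5 and 281.2, and there shCEBPb alone stood high. Arnt2 had 1447.6 and 478.3, Plpp3 1331.9 and 515.1, Fhdc1 1722.1 and 666.7, Oit3 793.8 and 321.1, Tmem178 1726.6 and 640.0, and Fabp12 2283.6 and 952.2. On the lower side the semaphorin gene Sema6d had 144.4 and 614.3, beside 164.1 in shJunB and 641.5 in the library without a named shRNA. Its log2 ratio was -1.06, but -0.04 over regions with an island in both libraries. Per kb of called length 0 of the 12 higher genes passed.

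Single regions can be set beside these genes, given in the order shCEBPb, scramble, shJunB and the library without a named shRNA. Inside Msra, a methionine sulfoxide reductase gene, the region chr14:64251001-64266800 had 569.5 reads in shCEBPb, 123.8 in scramble, 642.6 in shJunB and 703.6 in the library without a named shRNA, a 4.60-fold ratio to scramble, and with IFNγ it had 393.7 and 56.1. Inside Coro2b, an actin-binding coronin gene, chr9:62450201-62473400 had 861.0, 248.6, 212.5 and 407.6, with shCEBPb the highest of the 4, and with IFNγ no island was called in either library. In Mtus1 the region chr8:41030001-41059600 had 1033.2, 2208.7, 1182.6 and 1601.1, and with IFNγ 1619.9 in shCEBPb and 1545.6 in scramble. A region over Kmo and Opn3 (chr1:175651201-175670600), of which Kmo encodes an enzyme of tryptophan breakdown, had 541.7, 1132.8, 475.1 and 997.0. With IFNγ no island was called over Kmo and Opn3 in shCEBPb or scramble. Across the whole comparison 55 higher and 8 lower regions had at least 500 reads in the higher library. Per kb of called length 0 of these 55 and 1 of these 8 passed. That 1 was the Sfi1 region, which had no island in shCEBPb and whose ratio this measure can hardly change. The Msra region had a log2 ratio of -0.20 per kb. Between genes, the highest ratios among regions with an island in both libraries lay 87.8 kb from Slc45a1 (chr4:150740001-150753600, 369.5 and 70.2 reads, 5.26-fold), 216.6 kb from Prdm1 (chr10:44745201-44758400, 365.0 and 74.7, 4.89-fold) and 11.9 kb from Phospho1 (chr11:95803001-95812600, 286.1 and 60.2, 4.75-fold). The lowest lay 4.39 kb from Emb (chr13:117278801-117290800, 95.1 and 385.8, 4.06-fold lower), 13.4 kb from Slc22a21 (chr11:53928801-53936600, 63.7 and 221.9) and 36.1 kb from Ivns1abp (chr1:151303801-151308400, 32.3 and 108.1). With IFNγ the region near Slc45a1 had 353.0 reads in shCEBPb and 161.0 in scramble, and the one near Emb 52.6 and 90.4. The region near Prdm1 had 318.1 and 280.3 with IFNγ, a smaller gap in the same direction. Near Phospho1 an island was called with IFNγ in shCEBPb and not in scramble. The same held near Slc22a21, where the order was thus the other way from untreated cells. Near Ivns1abp no island was called in either library with IFNγ.

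The same knockdown was measured with IFNγ in a pair of libraries that shares none with the untreated pair. There 883 of 26173 regions (3.37%) were higher and 504 (1.93%) lower in shCEBPb. Of the 1298 regions higher without cytokine, 934 were measured with IFNγ, and 93 of them (9.96%) were higher there and 33 (3.53%) lower, with a median log2 ratio of 0.18. Of the 598 lower regions, 328 were measured, and 27 (8.23%) were higher and 18 (5.49%) lower, with a median of 0. With islands merged across the 6 knockdown libraries, 243 of 516 lower regions were measured, and the order turned, with 18 higher and 20 lower. Among regions with an island in all 4 libraries, 40 of 443 higher regions were higher and 7 lower with IFNγ, and of 96 lower regions 3 were higher and 3 lower. Among genes, 57 of the 74 higher were measured, and 2 were higher again (Gdpd2 and Npas4) and 2 lower (Kif12 and Slc26a4), where 0.432% of all genes were higher and 0.250% lower with IFNγ. Of the 45 lower, 27 were measured. Cfap99 was lower again, and Sfi1 and Gm51877, which share 1 region, were higher. Gdpd2 had 150.4 reads in shCEBPb with IFNγ and no island in scramble. The scramble library with IFNγ was the shallowest, 14.3 M reads against 23.9 M, and the part of its depth in these counts was not tested.

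A test could be run only over both states. edgeR's quasi-likelihood test on the 6 knockdown libraries, with terms for shRNA and for IFNγ, asked whether the shCEBPb difference, averaged over untreated and IFNγ-treated cells, exceeded its variation between the states. With 2 residual degrees of freedom, 0 of 17624 regions with islands in all 6 libraries passed an adjusted p of 0.05, and the smallest adjusted p was 0.554. At an unadjusted p under 0.05 edgeR had 1016 regions higher and 311 lower, and DESeq2 called 56 higher and 0 lower after adjustment. For sums per gene edgeR called 0 of 12802, with 637 higher and 264 lower at an unadjusted p under 0.05, and DESeq2 called 51 higher and 2 lower. Leading genes by edgeR were Shisa9, with a log2 difference of 0.87 ± 0.08 (SE, adjusted p = 0.324), and Src with 0.86 ± 0.08 (adjusted p = 0.324). Bach2 had 0.59 ± 0.08 (edgeR adjusted p = 0.483) and Cebpd -0.39 ± 0.12 (edgeR adjusted p = 0.665). Cebpb had 0.00 ± 0.07. None of these passed.

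The cells matched their label by acetylation. Of 27 macrophage identity genes 26 were tested, with summed reads of 137826.6 in shCEBPb and 142391.1 in scramble, and Marco was the only one without an island. Of 9 mast cell and basophil genes 0 had an island, of 8 NK genes 1 and of 10 fibroblast genes 2. The epithelial list had Cldn4 past the rule (113.0 and 52.4), with Krt18, Krt5 and Krt14 not called and sums of 209.0 and 124.9. Whether such cells took part in any difference was not tested.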

How the data were processed

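H3K27ac ChIP-seq reads were aligned with Bowtie2 2.2.6 and islands called with SICER 1.1 on mm10/GRCm38, per the submitters' processing notes; settings beyond the window of 200 bp and gap of 600 bp in the deposited names are not given in the sources used here. In each island the deposited file gives counts of ChIP and of control reads that the authors left unnormalised, the deposited fold is the ratio of ChIP to scaled control reads, and the deposited p-value and FDR come from the authors' island calling. Only islands past their threshold are listed, so "not called" is no measurement of 0.

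Islands of the compared libraries were merged where they overlapped by 1 bp or more, and other libraries' reads were taken by overlapped length. Size factors were medians of ratios over regions with an island in both libraries. Where a library lacked an island, the region took a fill value, the 5th percentile over all islands of that library. The size rule asked for an absolute log2 ratio of 1 or more and for 50 normalised reads or more on the higher side. Genes (21887 protein-coding, GRCm38.p6 spans without strand) took all regions within 1 kb, and a region counted as a gene start where it held a start from the RefSeq promoter table. Sequencing depths were worked out from the rounding of the deposited fold, with 14110230 control reads as the smallest total possible. Fold intervals are exact (Clopper-Pearson) 95% intervals and cover counting error only, since reads carry no molecular identifiers. Tests used edgeR 4.0.16 and DESeq2 1.42.0 in R 4.3.3, with Benjamini-Hochberg adjustment; Python 3.11.15 scripts did the rest. The standard error of an edgeR log2 difference is the estimate divided by the root of its F. The size rule and the fit were tested on simulated data.

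Named genes were the 8 most extreme per direction with an island in both libraries and the 4 with most reads and an island in only 1. Every gene of the C/EBP list was named, and per pathway list the passing members or else the member with most reads. Predicted genes were skipped. Members and lists were chosen with earlier results of these data known. Genes named otherwise were chosen after their values were seen. The labels do not say that libraries came from separate mice. Some named results are not reported here.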

Additional observations from a re-analysis of the deposited data

Results flagged for a closer look

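Sfi1, with Gm51877 in the same region, went opposite ways in the 2 states. Without cytokine scramble had 716.9 normalised reads and shCEBPb no called island; with IFNγ shCEBPb had 664.0 and scramble no called island, a log2 ratio of 3.31 against the fill value. The shJunB libraries had 671.8 and 684.6. The difference between the states was not tested.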

How the results depend on the processing

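No paired analysis was possible because the labels give no replicate numbers and each condition is 1 library. Main counts were 1298 higher and 598 lower regions, and 74 higher and 45 lower genes. Regions with an island in both libraries gave 661 and 218 regions and 19 lower genes. Reads per kb of called length gave 700 higher regions, a measure that can hardly change the ratio of regions with an island in only 1 library. A minimum of 200 reads gave 375 and 95 regions and 35 and 12 genes. Islands with an authors' fold of at least 2 gave 1403 lower regions and 157 and 201 genes. Control subtraction gave 132 and 70 genes, library totals 69 lower genes, and regions within 1 kb of a gene start 46 higher genes. Of alternatives added after the data were seen, filling only genes with no island at all gave 146 higher genes, and a 1.5-fold rule over shared regions gave 2239 and 1059 regions and 246 and 156 genes. DESeq2 gave 56 higher regions, and 51 higher and 2 lower genes, against 0 by edgeR in each; leaving out each of the 6 libraries gave 0 and 0. Other counts of regions and genes stayed within 1.5 times. Single genes that changed sign were, per kb of called length, Mamdc2 (-0.72), Aspa (-0.18), Slc27a2 (0.18), Nrip2 (0.86), Shbg (0.06) and Syce3 (0.68), and with an authors' fold of at least 2, Aff3 (-0.20) and Mamdc2 (-0.37). The cause was not tested. Of 8088 regions with under 97.0 normalised reads in the higher library, 23 were higher and 29 lower, and a region with an island in only 1 library can hardly pass there because of the fill value.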
